A study of Mus musculus with 16 samples.

Results

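The aryl hydrocarbon receptor (AhR) pathway was examined in the liver of NC-fed conventional mice, through 7 genes whose names in the array files are Ahr, Arnt, Ahrr, Tiparp, Cyp1a1, Cyp1a2 and Cyp1b1. Every probe that carries one of these names was taken, which gave 11 probes among 56605, and 7 gene names among 37074. Of the 7 genes, 5 passed the filter on dim signals and were tested among 20404 genes, while Cyp1b1 and Ahrr did not pass it. The 7 genes were fixed by name, with earlier results of these data known.

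AhR is a ligand-activated transcription factor that waits in the cytosol in a complex with chaperones. After binding a planar aromatic ligand it enters the nucleus, pairs with ARNT and binds short DNA elements near its target genes, among them the cytochrome P450 genes of the CYP1 family. Gut bacteria convert tryptophan into indoles, some of which are AhR ligands, and the portal vein carries gut products to the liver. AhR activity is held back by its own targets, since the CYP1 enzymes degrade ligands, AHRR competes with AhR for ARNT, and TIPARP marks AhR with ADP-ribose.

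Liver RNA from 16 male C57BL/6 mice was hybridized to Agilent one-colour arrays, 1 per mouse. The mice were 6 weeks old at the start, received NC for 4 weeks, were 10 weeks old by the labels, and never received antibiotics. The groups were 6 mice given reduced PBS as vehicle (Conv + PBS), called not transplanted in the sample labels, 5 mice given caecal content of lean mice (Conv + LM) and 5 given that of HFD-fed obese mice (Conv + OM(HFD)), called PBS, LM and OM(HFD) mice below. Caecal content was given by gavage, the mice were fasted before sacrifice and were housed in groups, and the cage of each mouse is not given in the sources used here, so that cage and group cannot be told apart and p-values measure the spread between mice only. The question asked of these genes is whether the transfer of either microbiota shifted their hepatic level.

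The level of a probe is given below as log2 of its background-corrected signal minus the 75th percentile of its array, so that 0 is the 75th percentile and a difference of 1 is a factor of 2. Single genes were compared between groups within a probe, since the brightness of a probe does not give the amounts of different transcripts. Brightness served besides to choose among the probes of a gene and to find genes of a like signal. Marker lists are also given as summed levels over their probes, in which bright probes weigh most. The arrays called between 49.8% and 58.3% of probes well above background, and no spot was saturated. Hepatocyte markers were well above background on all arrays, with a summed level between 11.03 and 11.39 in every mouse. Of markers of other tissues, 2 of 7 for intestinal epithelium and 3 of 6 for pancreas and 4 of 6 for adipose tissue passed the filter. Arrays of 2 mice stood apart. The summed level of 6 neutrophil markers was 4.54 in PBS mouse 1 and 4.44 in OM(HFD) mouse 25 but between 1.13 and 1.57 in the other 14 mice, and that of 8 Kupffer cell markers was 7.19 and 6.32 in these mice and between 5.09 and 5.87 in the others. Results were therefore also computed without both mice, a choice made after the data were seen. In whole liver, fewer cells of a type and less RNA per cell cannot be told apart.

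Promoter sequences of the pathway genes are shown because the core of the AhR element, GCGTG or CACGC on the other strand, is the feature by which AhR and ARNT recognise target genes. In the table of RefSeq promoters used here (build GRCm38.p6), 6 of the 7 genes were matched to an entry and Ahr was not, and 5 of the 6 held the core within the 250 bases before the start. The core was also present in 28.2% of all 32851 promoters of that length, and the longer motif TNGCGTG or CACGCNA in 4.1%. Ahrr held 3 cores and was the only one of the 6 with the longer motif, while 2.77% of all promoters held 3 or more cores. Cyp1a2 held none in this window. The sequences below run 5′ to 3′ in the direction of the gene, with the core in capitals.
Cyp1a1, chr9:57697363-57697612, plus strand: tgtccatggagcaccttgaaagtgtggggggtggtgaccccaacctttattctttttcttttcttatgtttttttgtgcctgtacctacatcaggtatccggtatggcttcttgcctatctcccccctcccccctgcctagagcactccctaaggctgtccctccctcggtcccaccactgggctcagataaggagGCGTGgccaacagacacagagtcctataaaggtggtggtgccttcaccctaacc
Ahrr, chr13:74292332-74292581, minus strand: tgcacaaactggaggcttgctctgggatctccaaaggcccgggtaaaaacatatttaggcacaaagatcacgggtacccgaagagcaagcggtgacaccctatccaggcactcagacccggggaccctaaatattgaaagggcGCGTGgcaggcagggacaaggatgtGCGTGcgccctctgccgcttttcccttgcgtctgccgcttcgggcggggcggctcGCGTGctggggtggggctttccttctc
Cyp1b1, chr17:79715062-79715311, minus strand: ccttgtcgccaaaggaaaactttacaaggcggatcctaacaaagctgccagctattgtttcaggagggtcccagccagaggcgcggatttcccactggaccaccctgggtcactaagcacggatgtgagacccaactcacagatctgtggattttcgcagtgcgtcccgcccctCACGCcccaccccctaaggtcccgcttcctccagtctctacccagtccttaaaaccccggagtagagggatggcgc
Tiparp, chr3:65528197-65528446, plus strand: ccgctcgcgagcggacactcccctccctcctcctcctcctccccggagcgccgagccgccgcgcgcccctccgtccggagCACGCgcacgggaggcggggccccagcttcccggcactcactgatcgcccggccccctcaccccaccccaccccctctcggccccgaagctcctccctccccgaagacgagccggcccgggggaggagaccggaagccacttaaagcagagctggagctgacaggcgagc

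The single core of Cyp1a1 began 54 bases before the start, that of Cyp1b1 76 bases and that of Tiparp 170 bases before it. The cores of Ahrr began 27, 82 and 107 bases before the start. Cyp1a1 and Cyp1a2 are neighbours on chromosome 9 in opposite orientation, with 13958 bases between their starts. A match of these letters is a description of the window and was not tested for binding.

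The array probes are 60 bases long, and 1 Arnt probe is shown because its sequence runs through the coding part of the transcript of a gene detected in every mouse. It starts at position 641 of the transcript and lies on the plus strand of chr3:95278469-95278528 (mm9, the build of the array files). It has 1 reading frame without a stop codon. No base is marked by capitals.
Arnt probe: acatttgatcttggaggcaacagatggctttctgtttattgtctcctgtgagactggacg

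Detection divided the pathway. Cyp1a2, Tiparp, the brightest Ahr probe and all 3 Arnt probes were well above background in all 16 mice. Cyp1a1 was well above background in 7 mice, namely 3 PBS, 3 LM and 1 OM(HFD). Cyp1b1 was detected in 4 mice, none of them PBS, 2 of them LM and 2 OM(HFD). Of the 2 Ahrr probes, the one at position 4532 was detected in 1 mouse, a PBS mouse, and the one at position 2553 in none, so that no fold is given for Ahrr.

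None of the 5 tested genes passed an adjusted p under 0.05 in limma for OM(HFD) vs. PBS, LM vs. PBS or OM(HFD) vs. LM mice. The same held for all 20404 genes, of which 0% were called in each of these comparisons and 0% in the F test over the 3 groups. At an unadjusted p under 0.05, 0 of the 5 genes passed for OM(HFD) vs. PBS, beside 3.27% of all genes, 1 of the 5 (Tiparp) passed for LM vs. PBS, beside 3.95%, and 0 of the 5 passed for OM(HFD) vs. LM, beside 2.71%. In the F test 0 of the 5 passed, beside 2.95% of all genes, and the smallest of their 5 unadjusted p-values was 0.0523, for Tiparp. The methods' t-test gave the same counts in the 3 comparisons, beside 3.11%, 3.71% and 3% of all genes, and after adjustment it called 0 of the 5 and 0% of all genes. Without mice 1 and 25 the counts were again 0, 1 (Tiparp) and 0 at an unadjusted p under 0.05, beside 3.19%, 4.87% and 3.75% of all genes. Both comparisons with PBS share the same 6 control mice. The medians over the 5 genes were −0.15, −0.02 and −0.04 on the log2 scale for these 3 comparisons in turn, the last being the value of Cyp1a1, which was near background, beside medians of −0.0004, −0.01 and 0.01 over all genes.

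**Figure D1:**
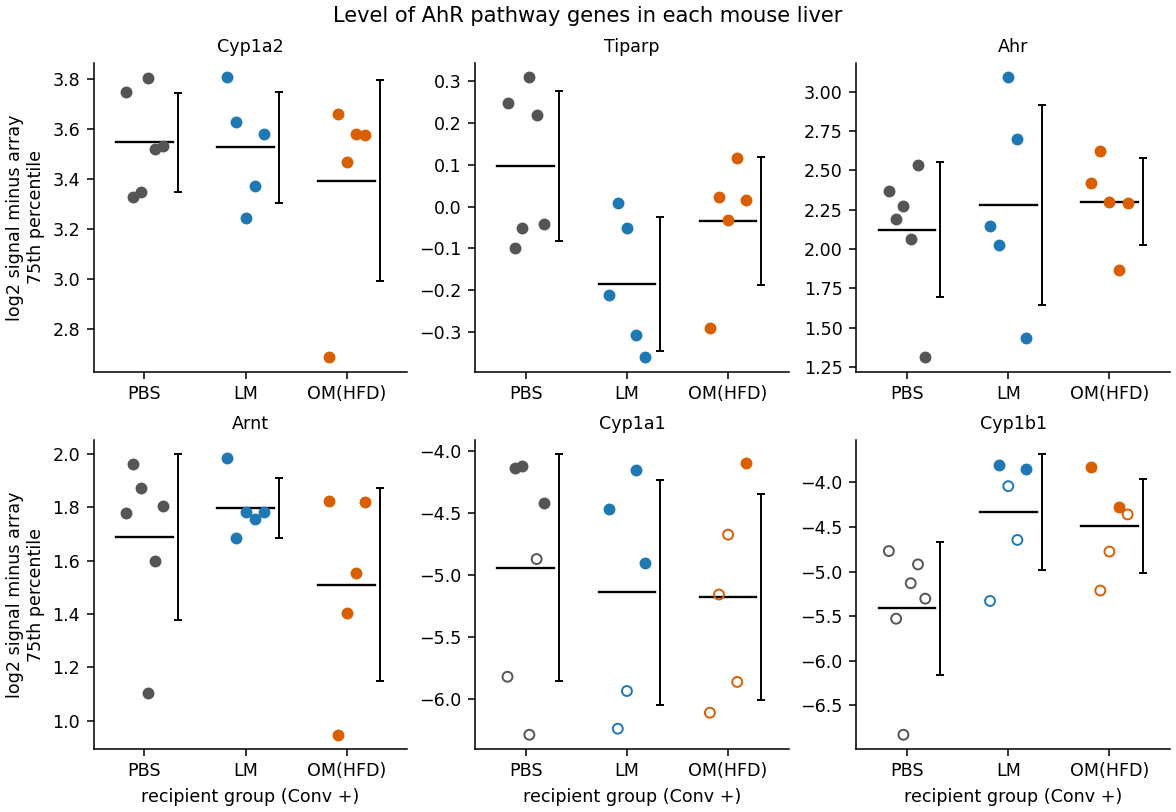
Level of each gene in each mouse (y axis, log2 signal minus the 75th percentile of the array; each panel has its own range) by recipient group (x axis). Filled points were well above background and open points were not, horizontal lines are group means and error bars are 1 SD; the groups overlap in all 6 panels, and Cyp1a1 and Cyp1b1 are open in most mice.

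Among the sensors, Ahr, the receptor itself, was read by a probe at chr12:36182724-36182783 (minus strand, mm9), position 5361 of its transcript. In PBS mice its level ran from 1.31 to 2.54 with a median of 2.23. The 5 LM mice were at 2.14, 2.03, 3.09, 2.70 and 1.44, and the 5 OM(HFD) mice at 2.42, 2.62, 2.30, 1.87 and 2.30. Both the lowest mouse and the highest mouse of the study were outside OM(HFD), and the 3 groups overlapped. The difference between OM(HFD) and PBS was 0.18 ± 0.27 (log2, SE), with a 95% interval from −0.39 to 0.74 (limma adjusted p = 0.9999, exact two-sided permutation p = 0.50). Leaving out 1 mouse at a time moved it to between 0.017, without PBS mouse 6, and 0.29. For LM vs. PBS it was 0.16, with an interval from −0.41 to 0.72 (limma adjusted p = 0.997).

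Ahr varied more among mice of the same group than most genes of a like signal. Its SD within groups was 0.47 on the log2 scale, larger than that of 97.5% of the 1000 tested genes nearest to it in probe signal, and the full range over 16 mice was 3.43-fold. The second Ahr probe, at chr12:36199083-36199142 and matched to an alternative transcript, was well above background in 8 mice only. Its deviations from the group means and those of the first probe had a Pearson r of 0.49 over the 16 mice, given as a description of probes read on the same arrays. On this probe OM(HFD) exceeded PBS by 0.67, with an interval from −0.49 to 1.83 (limma adjusted p = 0.9999).

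Arnt, the partner that AhR needs to bind DNA and that also serves the hypoxia-inducible factors, was read by 3 probes. On the brightest, at chr3:95301081-95301140 (plus strand, mm9), PBS mice ran from 1.103 to 1.96 with a median of 1.79. The 5 LM mice lay between 1.68 and 1.99, and the 5 OM(HFD) mice were at 1.82, 0.95, 1.403, 1.55 and 1.82. LM mice were thus close to each other, while mice as low as 1.103 and 0.95 occurred in the other 2 groups, and the groups overlapped.

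Between OM(HFD) and LM mice the Arnt level differed by −0.29 ± 0.17 (log2, SE), with an interval from −0.66 to 0.08 (limma adjusted p = 0.9995, exact permutation p = 0.119). Without OM(HFD) mouse 26, the lowest, it was −0.15. The other Arnt probes did not share this direction. The probe at position 3569 gave 0.13 and that at position 641 gave 0.11 for the same comparison. For OM(HFD) vs. PBS mice the brightest probe gave −0.18, with an interval from −0.53 to 0.18 (limma adjusted p = 0.9999, exact permutation p = 0.403). The probe at position 3569 was higher in OM(HFD) than in PBS mice by 0.27, with an interval from −0.02 to 0.56 (limma adjusted p = 0.9999, exact permutation p = 0.0714). That at position 641 was higher by 0.05. Deviations from group means on the brightest probe had a Pearson r of 0.20 with those at position 3569 and of 0.48 with those at position 641 over the 16 mice, while the latter pair of probes had an r of −0.32 with each other.

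**Figure D2:**
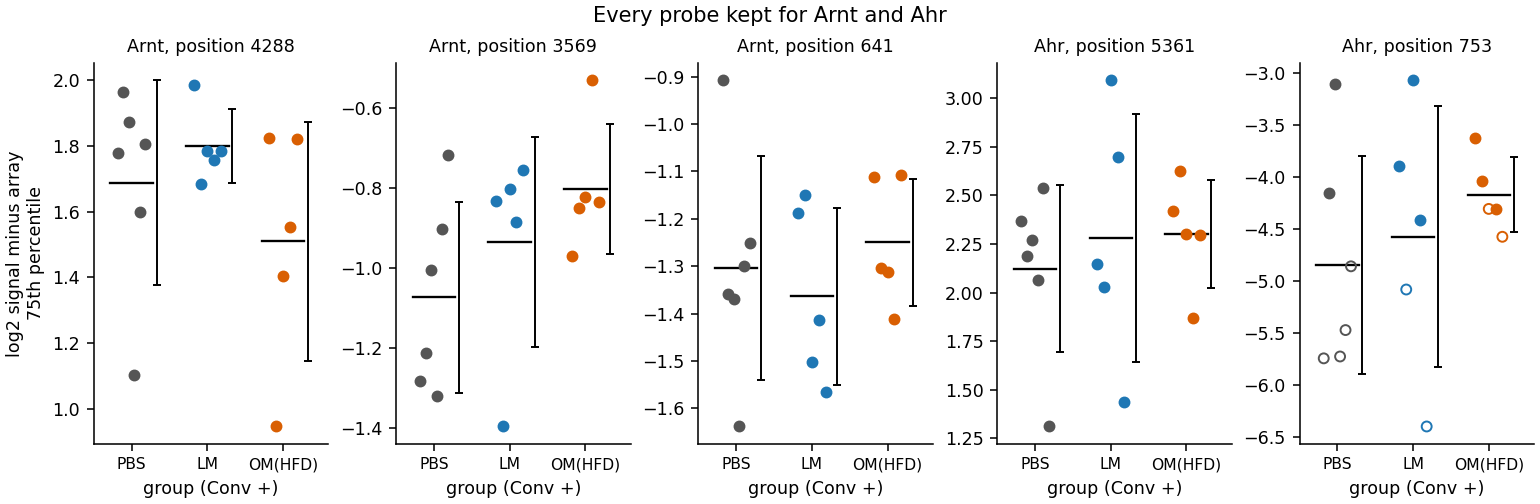
Level in each mouse (y axis, log2 signal minus the 75th percentile of the array) on each of the 3 Arnt and 2 Ahr probes, named by their first position in the transcript, by recipient group (x axis). Symbols are as in the plot of levels by gene, with the SD as error bar; the OM(HFD) mean is the lowest of the 3 on the Arnt probe at 4288 and the highest on the probes at 3569 and 641.

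Tiparp, the feedback enzyme that modifies AhR, was read at chr3:65358749-65358808 (plus strand, mm9). PBS mice ran from −0.10 to 0.31 with a median of 0.09. The 5 LM mice were at −0.21, 0.01, −0.05, −0.31 and −0.36, and the 5 OM(HFD) mice at −0.29, 0.02, −0.03, 0.12 and 0.02. The 3 highest PBS mice were above every mouse of the other groups, and the 3 lowest LM mice were below every PBS mouse, with overlap in between.

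The Tiparp level of LM mice was 0.823 times that of PBS mice (a difference of −0.28 ± 0.10 on the log2 scale, SE; 95% interval from −0.51 to −0.06). The unadjusted limma p was 0.0168 and the adjusted p over all genes was 0.997, so the difference did not pass. The exact two-sided permutation p over the 11 mice was 0.0411, where 0.00216 is the smallest possible. The difference was −0.12 on slide 1 and −0.41 on slide 2, and with slide as a block it was −0.29. Without mice 1 and 25 it was −0.25 (unadjusted p = 0.0275). For OM(HFD) vs. PBS it was −0.13, with an interval from −0.35 to 0.09 (limma adjusted p = 0.9999), and the difference between OM(HFD) and LM was 0.15, with an interval from −0.08 to 0.38 (limma adjusted p = 0.9995).

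Among the effector enzymes, Cyp1a2 is the CYP1 gene that hepatocytes express without added ligand, mostly around the central vein, and its product oxidises caffeine and aromatic amines. In PBS mice its level ran from 3.33 to 3.81 with a median of 3.53. The 5 LM mice were at 3.81, 3.63, 3.24, 3.37 and 3.58, and the 5 OM(HFD) mice at 2.69, 3.66, 3.47, 3.58 and 3.58. Apart from mouse 25, at 2.69, all mice of the study lay between 3.24 and 3.81, and the groups overlapped.

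For Cyp1a2 the difference between OM(HFD) and PBS was −0.15 ± 0.17 (log2, SE), with an interval from −0.50 to 0.20, or a fold between 0.705 and 1.15 (limma adjusted p = 0.9999, exact permutation p = 0.53). Without mouse 25 it was 0.02, and without mice 1 and 25 it was 0.06. For LM vs. PBS it was −0.02, with an interval from −0.37 to 0.33, or a fold between 0.773 and 1.26 (limma adjusted p = 0.998, exact permutation p = 0.883). Within slides, LM minus PBS went opposite ways, 0.32 on slide 1 and −0.30 on slide 2. The summed level of 10 pericentral markers was 9.95 in mouse 25 and between 10.2 and 10.4 in the other 4 OM(HFD) mice. Mouse 14 of LM, with a Cyp1a2 level of 3.63, also had a pericentral sum of 9.95. Such sums weight bright genes most. The mean log2 level of the same 10 markers was 3.31 in mouse 25. It was lower in OM(HFD) mouse 29, at 3.27, whose Cyp1a2 level was 3.58. The part of these markers in the value of mouse 25 was not tested.

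Cyp1a1, the classical inducible AhR target, lay at the edge of detection at chr9:57551535-57551594 (plus strand, mm9). Its signal ran from 2.85 to 18.4 intensity units in PBS mice, from 3.89 to 14.9 in LM mice and from 4.22 to 14.2 in OM(HFD) mice. The ranges covered each other almost fully. The difference between OM(HFD) and PBS was −0.24, with an interval from −1.30 to 0.82 (limma adjusted p = 0.9999), and 0.014 with normexp background correction. For LM vs. PBS it was −0.20 (limma adjusted p = 0.997). Both differences take signals below detection as measured, which were those of 3 of 6 PBS, 2 of 5 LM and 4 of 5 OM(HFD) mice.

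Cyp1b1, which in liver is known mainly from non-parenchymal cells, was read at chr17:80106547-80106606 (minus strand, mm9). In PBS mice its signal ran from 2.64 to 10.3 intensity units with a median of 6.69, and none was well above background. The 5 LM mice were at 7.39, 22.7, 14.5, 10.7 and 21.3, with the 22.7 and the 21.3 well above background, and the 5 OM(HFD) mice at 21.1, 6.41, 9.55, 12.7 and 11.8, with the 21.1 and the 12.7 well above background. The highest signals were in recipients of either microbiota, but mice of both groups overlapped with PBS.

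Since no PBS mouse was above background, no difference in level is given for Cyp1b1 against PBS. The group mean, with the 3 undetected mice of each group taken as measured, was set against the lowest level called well above background on each PBS array. It was 1.24 times the mean of these lowest levels in LM and 1.11 times in OM(HFD). They are not a detection limit, since a probe above them can be undetected. Cyp1b1 in LM mouse 15 was undetected at −4.04, while the lowest level called on its array was −4.34. In a fit of all 37074 genes without the filter, which takes signals below detection as measured, the unadjusted limma p of Cyp1b1 was 0.0119 for LM vs. PBS, 0.0270 for OM(HFD) vs. PBS and 0.0227 in the F test, and after adjustment it was 0.999 for LM vs. PBS and 1 in the other tests. Of all genes in that fit, 3.13%, 2.43% and 2.2% passed the unadjusted threshold in these tests, and 1.99% did for OM(HFD) vs. LM. That for LM was not kept with normexp background correction, and that for OM(HFD) was not kept without OM(HFD) mice 25, 29 or 30 or without PBS mouse 3, the lowest.

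Markers of non-parenchymal cells were read on the same arrays. All 10 stellate and fibroblast markers were measured, and their summed level ran from 5.74 to 6.16 in PBS, from 5.66 to 6.19 in LM and from 5.55 to 6.04 in OM(HFD) mice. That of 8 endothelial markers ran from 4.95 to 5.15, from 4.55 to 5.06 and from 4.37 to 5.11. These sums weight bright genes most, and Clec4g was the brightest of the endothelial list, with a mean of 4.15 in PBS mice. The mean log2 level of the same 8 markers ran from 0.118 to 0.524 in PBS mice. It ran from −0.024 to 0.441 in LM and from −0.035 to 0.439 in OM(HFD) mice, so that the groups overlapped. The median difference over the stellate and fibroblast markers was 0.10 for LM vs. PBS and −0.07 for OM(HFD) vs. PBS (log2), and that over the endothelial markers was −0.12 and −0.17. At an unadjusted p under 0.05, Cdh5 was lower in LM than in PBS mice (−0.31) and Clec4g (−0.48), Dcn (−0.26) and Lrat (−0.63) were lower in OM(HFD) than in PBS mice, with limma adjusted p-values of 0.997 for Cdh5 and 0.9999 for the others, beside 3.95% and 3.27% of all genes called in these comparisons. For OM(HFD) vs. PBS, 4 of the 10 stellate and fibroblast markers lay above 0 and 6 below, with Col1a1 at 0.65 and Des at 0.54, neither of which passed. Of the 8 endothelial markers, 3 lay above 0 and 5 below for LM vs. PBS. For OM(HFD) vs. PBS, 2 of them lay above 0 and 6 below. The part of these cells in the Cyp1b1 signal was not tested.

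**Figure D3:**
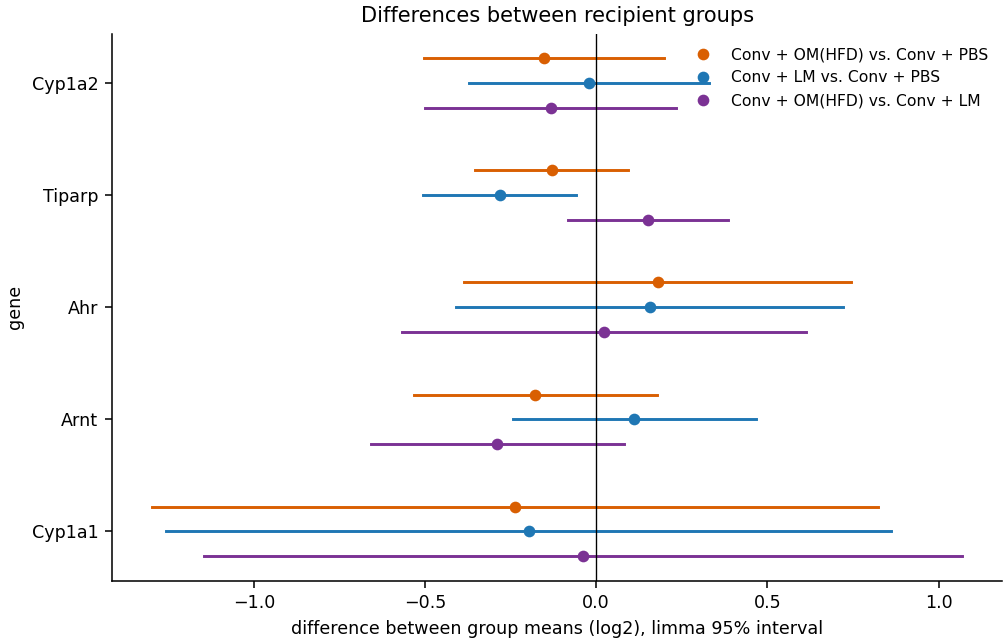
Difference between group means for each gene and comparison (x axis, log2), with the 95% interval from limma as a horizontal line. The 5 tested genes are shown; the interval of Tiparp for LM vs. PBS leaves out 0 before adjustment, and all others include it.

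Whether the pathway genes varied together among mice of one group was asked with deviations from group means over the 16 mice, for all 10 pairs of the 5 tested genes. Cyp1a2 and Tiparp had the largest Pearson r, though not the largest rho (Pearson r = 0.61, permutation p = 0.0199, adjusted over the 10 pairs 0.148; Spearman rho = 0.56, permutation p = 0.0341, adjusted 0.127). Without the 2 mice farthest from the median in Cyp1a2, mice 25 and 15, r was 0.68, and it was 0.74 on slide 1 and 0.38 on slide 2. Arnt and Tiparp had r = −0.54 (permutation p = 0.0444, adjusted 0.148; rho = −0.63, permutation p = 0.0127, adjusted 0.127), −0.50 without mice 4 and 26, and −0.73 and −0.37 on the 2 slides. Cyp1a1, which was well above background in only 7 of the 16 mice, and Tiparp had r = −0.56 (permutation p = 0.0423, adjusted 0.148; rho = −0.57, permutation p = 0.0381, adjusted 0.127), −0.37 without mice 4 and 14, and −0.16 and −0.92 on the 2 slides. No pair passed after adjustment, and Ahr had an absolute r under 0.29 with each of the other 4 genes.

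The genes with the most similar deviations over the 16 mice were, for Tiparp, 4933417G07Rik (r = 0.92), D930043N17Rik (0.84) and Gpr180 (0.83). For Ahr they were Tenm3 (0.87), Nudt13 (0.86) and Nit2 (0.83), and for Arnt they were Zfp182 (0.90), AK158699 (0.90) and Myo1a (0.86). For Cyp1a2 they were Olfr114 (0.85), Olfr342 (0.84) and Gm35287 (0.83), and for Cyp1a1, itself near background, Ankhd1, A930012L18Rik and Secisbp2l (all 0.89). None of these genes belongs to the pathway lists, all values were read on the same arrays, and they are the highest among 20404 genes, so they are given as a description.

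The proteins that hold AhR in the cytosol or act with it on DNA formed a list of 16 genes, 15 of them tested, since Arnt2 was not well above background in any mouse. Of the 15, 2 were lower in OM(HFD) than in PBS mice at an unadjusted p under 0.05 and none was higher, beside 3.27% of all genes, none passed in the other comparisons, and none passed after adjustment. The medians over the list were −0.07 for OM(HFD) vs. PBS, −0.09 for LM vs. PBS and 0.05 for OM(HFD) vs. LM.

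The 2 genes were Ncoa2, a coactivator of nuclear receptors and of AhR, and Nfe2l2, the regulator of antioxidant genes known as NRF2. Ncoa2 ran from 0.88 to 1.34 in PBS and from 0.65 to 1.11 in OM(HFD) mice, a difference of −0.26 ± 0.10 (log2, SE; unadjusted p = 0.0231, limma adjusted p = 0.9999, exact permutation p = 0.0563). Nfe2l2 ran from 2.83 to 3.21 in PBS and from 2.48 to 2.88 in OM(HFD) mice, a difference of −0.24 ± 0.11 (unadjusted p = 0.0497, limma adjusted p = 0.9999, exact permutation p = 0.0303). Both overlapped between the groups. With mice 1 and 25 left out, Ncoa2 stayed under the unadjusted threshold at −0.25 (limma unadjusted p = 0.0382), Nfe2l2 did not at −0.17 (0.164), and Hsp90aa1, a chaperone of cytosolic AhR, came under it as lower in LM than in PBS mice (named after its values were seen). Ncoa2 also had the smallest p of the list for LM vs. PBS (−0.20, limma adjusted p = 0.997, exact permutation p = 0.0541).

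Of 16 further target genes of AhR, such as Nqo1, Aldh3a1 and Ugt1a6a, 14 were tested, and 0 passed the unadjusted threshold in each comparison, beside 3.27%, 3.95% and 2.71% of all genes, and 0 without mice 1 and 25, beside 3.19%, 4.87% and 3.75%. Gsta1 was not matched to a name on the array and Serpinb2 was detected in 1 mouse. The list had medians of −0.05, −0.06 and −0.02 for the 3 comparisons in the order above. Gsta2, a glutathione transferase, had the smallest p in both comparisons with PBS. It ran from 3.59 to 3.97 in PBS, from 2.73 to 4.29 in LM and from 3.21 to 3.61 in OM(HFD) mice, so that the groups overlapped. The Gsta2 difference for OM(HFD) vs. PBS was −0.39 ± 0.20 (log2, SE; unadjusted p = 0.0667, limma adjusted p = 0.9999, exact permutation p = 0.00649). The share of all genes at such a permutation p was not computed. Without mice 1 and 25 the difference was −0.40 (limma unadjusted p = 0.104). Gsta2 belongs to a family of near-identical genes whose transcripts the probe may not tell apart. Fgf21, a hepatic fasting hormone, had the smallest p of the list for OM(HFD) vs. LM (0.65 ± 0.48, limma adjusted p = 0.9995, exact permutation p = 0.302).

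The enzymes that form AhR ligands from tryptophan in the host, or that remove their precursors, were 17 listed genes, of which 15 were tested. Ido1 was not well above background in any mouse and Tph1 was in 2. At an unadjusted p under 0.05, 1 gene was higher in OM(HFD) than in PBS, 1 was higher and 1 lower in LM than in PBS, and 1 was higher in OM(HFD) than in LM, beside 3.27%, 3.95% and 2.71% of all genes in either direction, with none after adjustment. The medians over the list were 0.04, 0.06 and −0.06 for these comparisons.

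Il4i1, a secreted amino acid oxidase that turns tryptophan into AhR-activating products, ran from −1.98 to −1.23 in PBS mice with a median of −1.86. The 5 OM(HFD) mice were at −1.21, −1.53, −0.90, −1.43 and −1.31, and the 5 LM mice ran from −2.04 to −1.28. All OM(HFD) mice were thus above 5 of the 6 PBS mice, and the remaining one, at −1.23, was mouse 1. Il4i1 was higher in OM(HFD) than in PBS mice by 0.47 ± 0.16 (log2, SE; unadjusted p = 0.0100, limma adjusted p = 0.9999, exact permutation p = 0.0195). It was higher than in LM mice by 0.41 ± 0.17 (unadjusted p = 0.0272, limma adjusted p = 0.9995, exact permutation p = 0.0556). Without mice 1 and 25 these differences were 0.56 (limma unadjusted p = 0.00352, adjusted 0.9998) and 0.40 (0.0267, adjusted 0.941).

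In LM mice, Ddc, which decarboxylates aromatic amino acids, was higher than in PBS by 0.62 ± 0.29 (unadjusted p = 0.0481, limma adjusted p = 0.997, exact permutation p = 0.104), with levels from 3.04 to 4.66 against 2.64 to 3.94. Kyat3, a kynurenine aminotransferase listed on the array as Ccbl2, was lower, with a difference of −0.37 ± 0.16 (unadjusted p = 0.0374, limma adjusted p = 0.997, exact permutation p = 0.0303), with levels from 5.63 to 6.19 against 5.94 to 6.54. Both genes overlapped between the groups. When mice 1 and 25 were left out, Ddc was at 0.52 (limma unadjusted p = 0.108) and Kyat3 at −0.38 (0.0112), and Kyat3 was then also higher in OM(HFD) than in LM mice by 0.35 (0.0211).

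**Figure D4:**
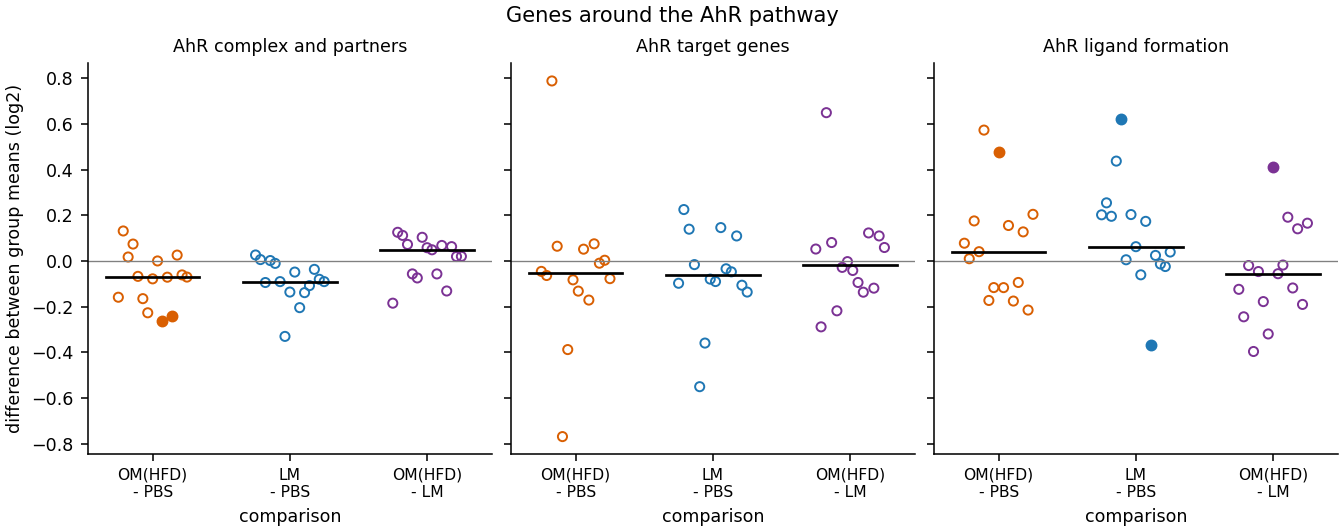
Difference between group means (y axis, log2) of each tested gene in the lists of AhR partners, further AhR targets and ligand-forming enzymes, for the 3 comparisons (x axis). Filled points had an unadjusted limma p under 0.05 and black lines are list medians, which lie between −0.09 and 0.06; no target gene is filled.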

How the data were processed

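Per the labels, each array held liver RNA of 1 mouse, 200 ng labelled with Cy3. By the barcodes in the file headers, the arrays lay on 2 slides that each carried all 3 groups. Slide 1 held 3 PBS, 2 LM and 3 OM(HFD) mice, and slide 2 held 3, 3 and 2. The authors extracted spot signals with Agilent Feature Extraction 10.10.1.1, and the deposited intensity values used here had been background-corrected within each array. The authors also deposited log2 values, which equalled quantile-normalized log2 of the median spot intensity to within 0.132, and every per-sample column was matched to a mouse. The submitters' processing notes also name limma. Probe positions are those of mm9 per the file headers.

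Control spots were dropped, log2 of the other spots was taken and their 75th percentile on each array was subtracted. Flagged spots were then dropped and the log2 values of replicate spots averaged. A probe was kept when well above background (at least 0.5 of its spots) on at least 5 of 16 arrays, and the kept probe with the highest mean stood for a gene. All 3 groups and 20404 genes entered 1 fit (lmFit and eBayes, limma 3.58.1, R 4.3.3, data.table version 1.17.8), with Benjamini-Hochberg adjustment. Exact two-sided permutations of the mice gave a second p for single genes, which cannot go below 0.00216 (5 mice against 6) or 0.00794 (5 against 5). The study names P below 0.05, a criterion on the log fold change that was not applied here, and no array test. Relations across mice used 100000 permutations within groups. Named genes outside the 7 are those of 3 lists at an unadjusted p under 0.05, those with the smallest p, and the 3 most similar genes. One gene that this rule names is not reported here. The 7 genes and the lists were chosen with earlier results of these data known. Marker lists served to check the tissue. Other settings tried were normexp (offset 50), quantile normalization, the authors' log2 values, 2 other filters, the slide as a block, fits of the compared groups alone, array weights, probe means, the methods' t-test (unpaired Student's, on the same values), leaving out each mouse and, after the data were seen, each other probe and leaving out mice 1 and 25 together. The fit was tested on simulated data. Promoters were searched and plots drawn in Python 3.11.15 with matplotlib 3.10.9.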

Additional observations from a re-analysis of the deposited data

Results flagged for a closer look

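Among the genes of the pathway, 3 values stood apart within their group by Dixon's test, out of 27 combinations of a probe and a group, of which chance marks about 1 in 20. Cyp1a2 in OM(HFD) mouse 25 was at 2.69, next to 3.47 in the nearest mouse of its group, a gap of 0.804 of the range. Cyp1b1 in PBS mouse 3 was at −6.83, next to −5.53, a gap of 0.632 of the range, and its signal was not well above background. Arnt at position 3569 in LM mouse 14 was at −1.40, next to −0.89, a gap of 0.797 of the range.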

How the results depend on the processing

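No gene of the pathway passed an adjusted p under 0.05 in any setting. No paired analysis was possible because no mouse number occurs in more than 1 group. Tiparp stayed lower in LM than in PBS mice at an unadjusted p under 0.05 in every setting, between −0.33 and −0.22, and its largest p was 0.0497, without LM mouse 17. Of 465 recomputed differences, 419 kept their direction and side of that threshold, 5 lost it (all of Cyp1b1) and 41 changed sign, none of which had passed it in the first place. The cause of these changes was not tested.

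Without the filter, the count at an unadjusted p under 0.05 was 1 for OM(HFD) vs. PBS mice (Cyp1b1), 2 for LM vs. PBS mice (Cyp1b1 and Tiparp) and 1 in the F test (Cyp1b1), beside 2.43%, 3.13% and 2.2% of the 37074 genes in that fit. In the F test it was also 1 (Tiparp) with probes detected on all arrays and 1 with array weights, and leaving out a mouse gave 0 to 1, with 1 (Tiparp) without PBS mice 2, 3 or 6, LM mice 14 or 15 or OM(HFD) mouse 25. The share of all genes called was not computed for these settings, so these F test counts cannot be set against it. Cyp1b1, whose signal was above background in no PBS mouse, was no longer under the unadjusted threshold for LM vs. PBS with normexp, or for OM(HFD) vs. PBS without PBS mouse 3 or without OM(HFD) mice 25, 29 or 30.

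With normexp, the sign changed for Cyp1a1 (0.014 for OM(HFD) vs. PBS, 0.032 for OM(HFD) vs. LM), Ahr (−0.015 for OM(HFD) vs. LM) and Cyp1b1 (0.029 for OM(HFD) vs. LM). With the authors' log2 values it changed for Cyp1a1 (0.006) and Cyp1a2 (0.0019) in LM vs. PBS and for Ahr (−0.0039) in OM(HFD) vs. LM, and with array weights for Ahr (−0.10) in OM(HFD) vs. LM. Without mice 1 and 25 it changed for Cyp1a2 (0.064 for OM(HFD) vs. PBS, 0.020 for LM vs. PBS, 0.045 for OM(HFD) vs. LM), and in OM(HFD) vs. LM for Cyp1a1 (0.19) and Ahr (−0.0067), while the counts of genes under the thresholds did not move. The mean of all Arnt probes gave 0.049 for OM(HFD) vs. PBS. The Arnt probe at position 3569 gave 0.27 for OM(HFD) vs. PBS and 0.13 for OM(HFD) vs. LM, and that at position 641 gave 0.054, −0.060 for LM vs. PBS, and 0.11 for OM(HFD) vs. LM. Leaving out a mouse moved the sign of OM(HFD) vs. PBS for Cyp1a2 (−0.22 to 0.024). For LM vs. PBS it did so for Cyp1a1 (−0.47 to 0.077), Cyp1a2 (−0.091 to 0.050), Arnt (−0.0056 to 0.17) and Ahr (−0.047 to 0.37). For OM(HFD) vs. LM it did so for Cyp1a1 (−0.31 to 0.21), Cyp1a2 (−0.20 to 0.045), Ahr (−0.19 to 0.23) and Cyp1b1 (−0.40 to 0.025). Cyp1a1, Cyp1b1 and Ahrr were read near background, and the number of arrays limits the precision.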
